A study of Prunus persica with 25 samples.

Results

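Floral identity and flowering-time genes were followed in winter buds of the peach cultivar Fantasia. Of 26873 genes counted in every library, 7 were taken by their identifiers and are called by the names used for them in the publication: *LFY* (PRUPE_5G140700), *AGL79* (PRUPE_3G249300), *SEP1* (PRUPE_1G290500), *SPL9* (PRUPE_6G256300), *AGL20A* (PRUPE_2G151200), *AGL20B* (PRUPE_5G149400) and *CO/COL1/COL2-A* (PRUPE_3G245100). Gene expression had been measured by RNA sequencing in 25 bud libraries from 2 winters. Year B holds flower buds at Pre0CU and Post770CU (2 libraries each) and vegetative buds at Pre0CU, 200CU, 475CU and Post770CU (3 libraries each). Year A holds vegetative buds at 0CU, 475CU and 770CU (3 libraries each). CU are chilling units, a running sum of cold by the Utah model. Pre0CU was sampled before any unit had accumulated, and Post770CU, which the count tables head 930CU, after the chilling requirement had been met. Buds of both types came from the same kind of axillary triplet, in which lateral flower buds flank a central vegetative bud, and the labels name no treatment other than the stage.

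In *Arabidopsis thaliana*, where these roles were worked out, flowering-time pathways that read day length, age and cold meet in floral integrator genes. The integrators switch on meristem identity genes, which turn the new primordia on the flank of a shoot apex into flowers, and organ identity genes of the MADS-box family then specify sepals, petals, stamens and carpels. In peach the flower buds are initiated in the summer before they open and their organs keep developing through the winter.

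The libraries held 39615840 to 71239880 counts. In year B the 16 libraries left 11 to 38 genes without a count, whereas the 9 libraries of year A left 4076 to 4756 and about 96.2% of their counts above 0 were even numbers, so levels are set side by side between years but not tested. Levels are CPM (counts scaled to a common library size) after TMM scaling within a year. A gene was called when the adjusted p (Benjamini-Hochberg over all genes tested, edgeR quasi-likelihood test) was below 0.05 and the fold change above 1.4. All 7 genes passed the filter on low counts in both years. The labels give polyA RNA for the 4 flower bud libraries and the vegetative Post770CU libraries, and total RNA for the other vegetative libraries. At Pre0CU the bud type and this label cannot be told apart, while at Post770CU both bud types carry the same label. Within vegetative buds of year B, any step to Post770CU cannot be told apart from the change of label. The labels do not say which trees a replicate came from, so p-values measure the spread between these libraries.

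**Figure D1:**
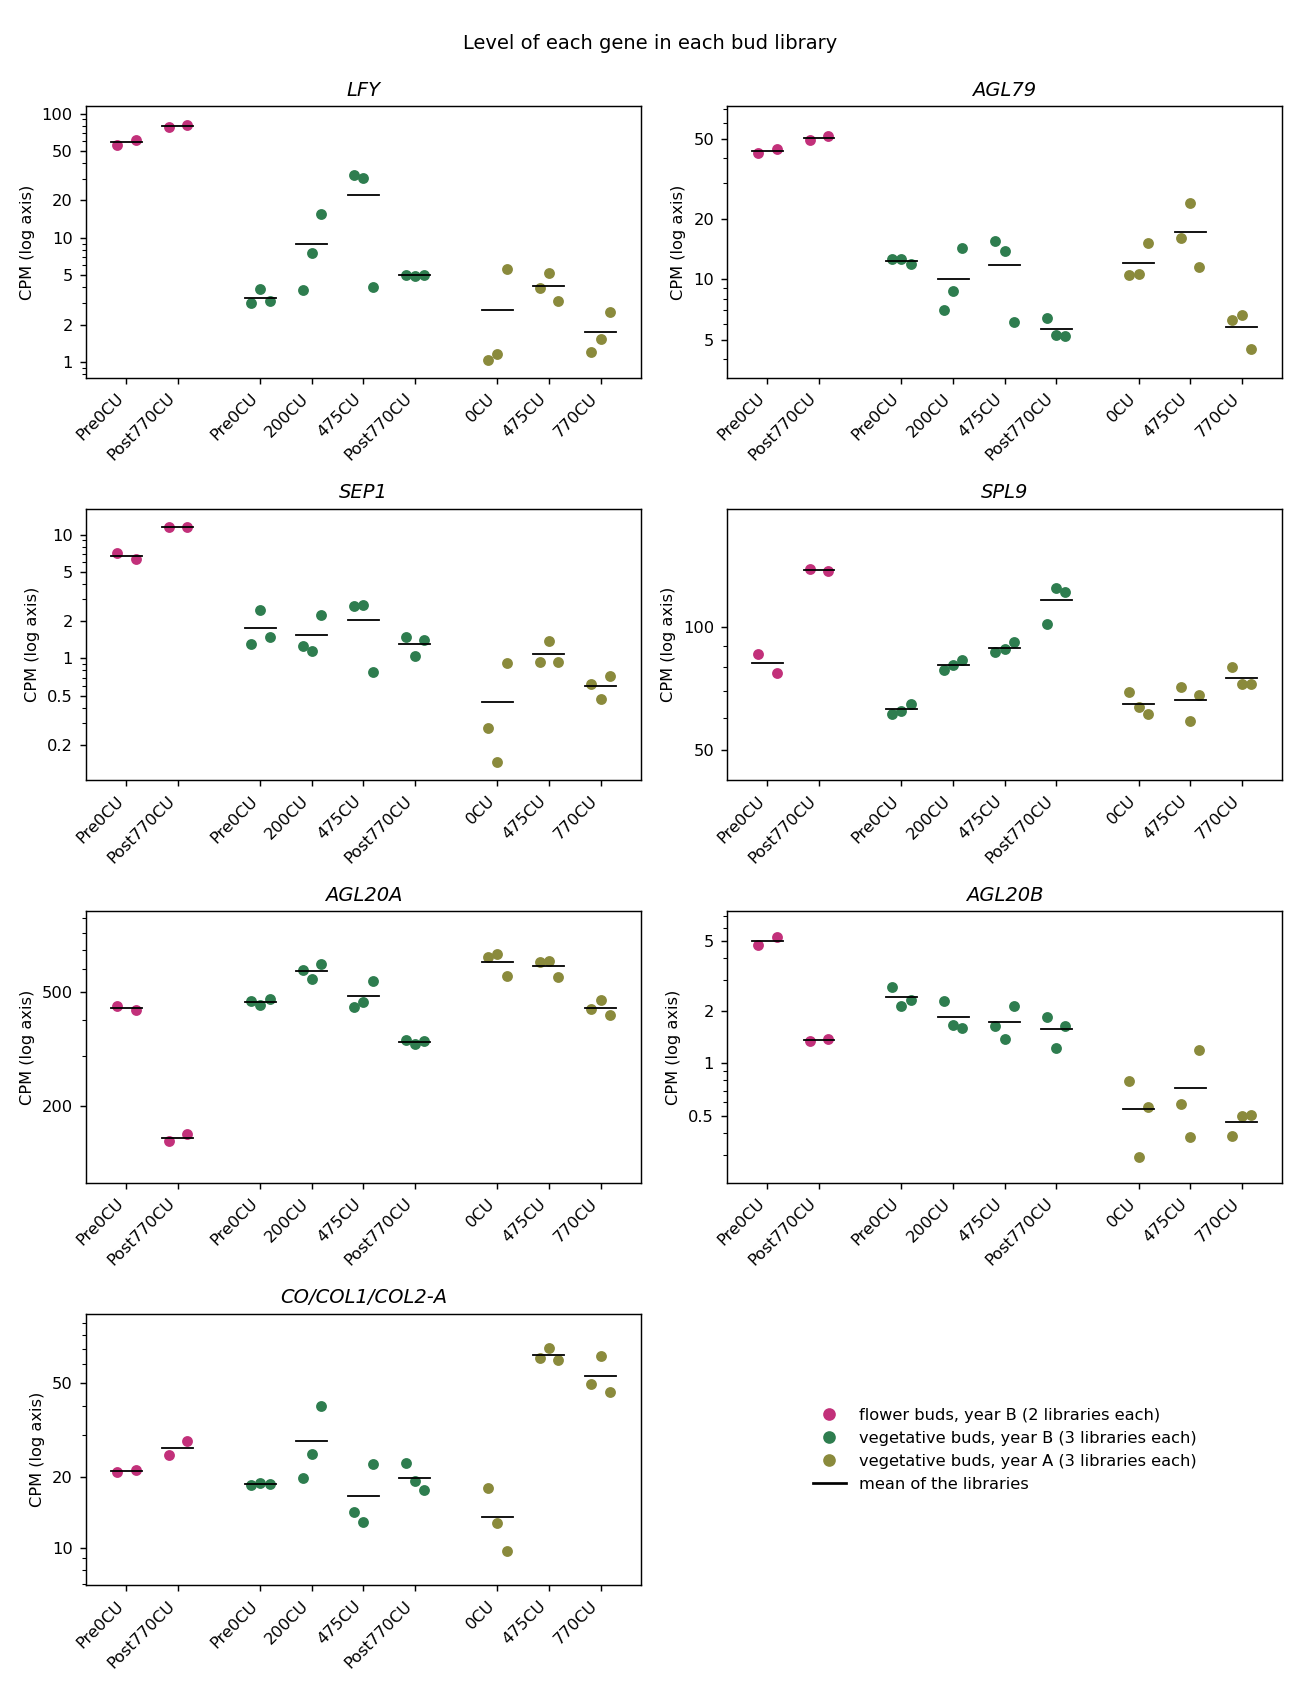
Level of the 7 genes in each library (points, CPM on a log axis) with the mean of each group (line), for flower buds of year B, vegetative buds of year B and vegetative buds of year A. *LFY*, *AGL79* and *SEP1* are highest in the 4 flower bud libraries, *AGL20A* and *AGL20B* are lower in Post770CU than in Pre0CU flower buds, and the 475CU vegetative libraries of year B spread from 4.03 to 32.0 CPM for *LFY*.

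The first question was which of the genes differed between flower and vegetative buds of the same date. At Pre0CU, 4 of the 7 genes were called, all 4 higher in flower buds: *LFY*, *AGL79*, *SEP1* and *AGL20B*. Among all genes tested at Pre0CU, 6.70% were called and 3.89% were called higher in flower buds. At Post770CU *LFY*, *AGL79* and *SEP1* were again called higher in flower buds and *AGL20A* was called lower, so that 4 of 7 were called, 3 of them higher, where 27.8% of all genes were called and 14.5% were called higher. The median log2 fold change of the 7 genes was 1.07 at Pre0CU and 0.42 at Post770CU, beside -0.01 and -0.02 over all genes. Several of the genes had been assigned to a bud type on data that include these samples, so the list is no independent evidence of its direction. These are bulk measurements of whole buds, in which fewer cells of a type and less RNA per cell cannot be told apart.

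*LFY*, which encodes the transcription factor LEAFY that confers floral fate on a meristem, had 56.1 and 61.5 CPM in flower buds at Pre0CU, against 2.97, 3.87 and 3.07 CPM in vegetative buds. At Post770CU it had 78.4 and 81.9 CPM in flower buds, against 5.04, 4.92 and 5.06 CPM in vegetative buds. At either stage both flower bud libraries lay far above all 3 vegetative ones. The log2 fold change was 4.15 at Pre0CU (17.8-fold, standard error 0.60, edgeR adjusted p = 0.000281) and 4.00 at Post770CU (16.0-fold, standard error 0.58, adjusted p = 2.73e-05). The fit of year B shares 1 spread per gene over all its groups, among them 200CU and 475CU, where replicates of *LFY* stood far apart. With the 10 libraries of Pre0CU and Post770CU alone, the values were 4.15 and 4.01 (adjusted p = 2.35e-11 and 1.13e-12). From 48 to 5176 reads were counted on the gene in a library.

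*AGL79* is a MADS-box gene that the study pairs with the *Arabidopsis* locus of *APETALA1*, a meristem identity gene that acts beside *LEAFY* and also specifies sepals and petals. Its level was 42.3 and 44.5 CPM in flower buds at Pre0CU, against 12.6, 12.6 and 11.9 CPM in vegetative buds. At Post770CU flower buds had 49.3 and 51.7 CPM and vegetative buds 6.45, 5.30 and 5.24 CPM. The bud types did not overlap at either stage, and the vegetative buds held less at Post770CU than at Pre0CU. The log2 fold change was 1.81 (3.50-fold, standard error 0.28, edgeR adjusted p = 0.000434) at Pre0CU and 3.16 (8.94-fold, standard error 0.29, adjusted p = 1.92e-07) at Post770CU.

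*SEP1* is named after *SEPALLATA1*, a class E MADS-box gene whose protein joins the complexes that specify all floral organs. It was counted at 7.03 and 6.32 CPM in flower buds at Pre0CU, against 1.31, 2.46 and 1.48 CPM in vegetative buds. The Post770CU values were 11.5 and 11.4 CPM in flower buds, against 1.49, 1.04 and 1.42 CPM in vegetative buds. Every flower bud library was thus above every vegetative library of the same stage. The log2 fold change was 1.92 (3.79-fold, standard error 0.37, edgeR adjusted p = 0.00241) at Pre0CU and 3.11 (8.65-fold, standard error 0.37, adjusted p = 3.50e-06) at Post770CU.

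**Figure D2:**
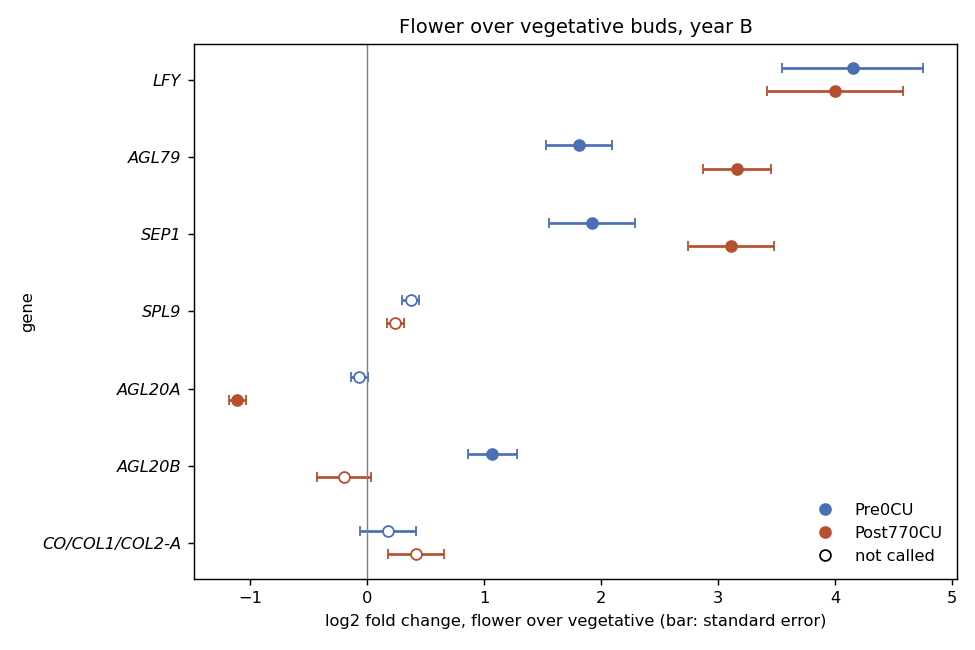
Log2 fold change of flower over vegetative buds (horizontal axis, with standard error) for each gene at Pre0CU and Post770CU of year B, from 2 flower and 3 vegetative bud libraries per stage. *LFY* stands near 4 at both stages, *AGL79* and *SEP1* lie further to the right at Post770CU, and *AGL20A* is to the left of 0 at Post770CU.

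The 2 genes named after *AGL20* are paired by the study with the same *Arabidopsis* locus, that of *SOC1*, a MADS-box floral integrator activated by long days, cold and gibberellin. They differed in which bud type held more transcript and when. *AGL20A* had 446 and 432 CPM in flower buds at Pre0CU, against 466, 449 and 472 CPM in vegetative buds, and its log2 fold change of -0.07 was not called (adjusted p = 0.577, standard error 0.0733). By Post770CU the flower buds stood at 152 and 160 CPM, against 340, 329 and 337 CPM in vegetative buds, so the gene fell below the vegetative level by 1.11 on the log2 scale (standard error 0.076, edgeR adjusted p = 8.13e-09). *AGL20B* showed its difference at the other end of winter. At Pre0CU it had 4.77 and 5.30 CPM in flower buds, against 2.74, 2.14 and 2.3 CPM in vegetative buds (log2 fold change 1.07, standard error 0.21, adjusted p = 0.00265). At Post770CU the flower buds had 1.35 and 1.39 CPM, inside the vegetative range of 1.23 to 1.84 CPM, and the log2 fold change of -0.20 was not called (standard error 0.23, adjusted p = 0.535). *AGL20B* rested on 65 to 229 reads in these 10 libraries.

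*SPL9* encodes a SQUAMOSA promoter-binding protein-like factor that in *Arabidopsis* marks the passage of a shoot to the adult phase and is held down by a microRNA in young plants. In flower buds it had 85.9 and 77.2 CPM at Pre0CU, against 61.4, 62.4 and 65.0 CPM in vegetative buds. At Post770CU it had 139 and 137 CPM in flower buds, against 102, 125 and 122 CPM in vegetative buds. The groups did not overlap at either stage, but the log2 fold changes of 0.37 (adjusted p = 0.00238) and 0.24 (adjusted p = 0.00957) were under the 1.4-fold minimum, so the gene was not called. *CO/COL1/COL2-A*, a gene of the CONSTANS family of B-box factors, whose best known member reports day length to the flowering pathway, had 21.0 and 21.4 CPM in flower buds and 18.5, 18.9 and 18.6 CPM in vegetative buds at Pre0CU. It had 24.7 and 28.3 CPM in flower buds and 22.8, 19.1 and 17.6 CPM in vegetative buds at Post770CU. Neither log2 fold change, 0.18 (adjusted p = 0.695) and 0.42 (adjusted p = 0.168), was called.

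The second question was how each gene changed over the winter within a bud type, from Pre0CU to Post770CU. In flower buds 3 of 7 genes were called, with *SPL9* higher and *AGL20A* and *AGL20B* lower at Post770CU, where 43.8% of all genes tested were called. In vegetative buds 3 of 7 were called as well, with *SPL9* higher and *AGL79* and *AGL20B* lower, where 37.5% of all genes were called. The share of called members was thus close to that of all genes in either bud type. The vegetative Post770CU and Pre0CU libraries also differ in the labelled RNA, which cannot be told apart from the stage.

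*AGL20A* had 152 and 160 CPM in flower buds at Post770CU, against 446 and 432 CPM at Pre0CU, and fell by 1.49 on the log2 scale (standard error 0.0821, edgeR adjusted p = 2.41e-10). In vegetative buds the gap between 340, 329 and 337 CPM at Post770CU and 466, 449 and 472 CPM at Pre0CU gave a change of -0.46 on the log2 scale (standard error 0.0656, adjusted p = 1.26e-05), just under the fold minimum. The change in flower buds minus that in vegetative buds, which is called the interaction, was -1.03 (standard error 0.10, adjusted p = 1.93e-06). The interaction was called for 3 of the 7 genes and for 22.9% of all genes.

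*AGL20B* had 1.35 and 1.39 CPM in flower buds at Post770CU, against 4.77 and 5.30 CPM at Pre0CU. It fell by 1.88 on the log2 scale in flower buds (standard error 0.24, edgeR adjusted p = 4.77e-06). In vegetative buds it fell by 0.61 (standard error 0.20, adjusted p = 0.0158), a call that was lost without the first Pre0CU library (-0.50, adjusted p = 0.071), without the second Post770CU library (-0.45, adjusted p = 0.0873) or with all 21 vegetative libraries in one fit (-0.56, adjusted p = 0.147). The interaction was -1.27 (standard error 0.31, adjusted p = 0.00509), so both *AGL20* genes changed more in flower buds.

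*AGL79* was the third gene whose winter change differed between bud types. In flower buds it had 49.3 and 51.7 CPM at Post770CU and 42.3 and 44.5 CPM at Pre0CU, with a log2 fold change of 0.22 that was not called (standard error 0.30, adjusted p = 0.561). In vegetative buds it fell by 1.13 on the log2 scale (standard error 0.27, edgeR adjusted p = 0.00176), with no overlap between 5.24 to 6.45 CPM at Post770CU and 11.9 to 12.6 CPM at Pre0CU. The interaction was 1.35 (standard error 0.40, adjusted p = 0.0162), and without the first Pre0CU flower bud library it missed the threshold (1.32, adjusted p = 0.0546).

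*SEP1* was not called over the winter in either bud type. Flower buds had 11.5 and 11.4 CPM at Post770CU and 7.03 and 6.32 CPM at Pre0CU (log2 fold change 0.78, standard error 0.38, adjusted p = 0.0937). The log2 fold change in vegetative buds was -0.42 (adjusted p = 0.364), and the interaction was 1.19 (standard error 0.53, adjusted p = 0.0987). In the fit of the 10 Pre0CU and Post770CU libraries the change in flower buds and the interaction were called, at 0.81 (adjusted p = 0.00491) and 1.21 (adjusted p = 0.007), and limma-voom also called the change in flower buds (0.77, adjusted p = 0.0108). The fit of 10 libraries leaves out the 200CU and 475CU libraries, in which *SEP1* ran between 0.776 and 2.7 CPM.

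*SPL9* rose in both bud types. Its log2 fold change was 0.76 in flower buds (standard error 0.0791, edgeR adjusted p = 4.16e-07) and 0.89 in vegetative buds (standard error 0.065, adjusted p = 6.25e-09), with an interaction of -0.13 (standard error 0.10, adjusted p = 0.366). The vegetative buds rose at each collection, with 61.4 to 65.0 CPM at Pre0CU, 78.7 to 83.0 CPM at 200CU, 86.9 to 92.2 CPM at 475CU and 102 to 125 CPM at Post770CU, and no neighbouring stages overlapped. Single steps stayed below 1.4-fold, and that from 200CU to 475CU (0.14) also missed the threshold on the adjusted p (0.147). The gene was thus first called at 475CU against Pre0CU (0.50, standard error 0.0649, adjusted p = 8.90e-06, 1.42-fold), and not without the third 475CU library (0.48, adjusted p = 4.94e-05).

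*LFY* was not called over the winter in either bud type. The log2 fold change was 0.45 in flower buds (standard error 0.58, adjusted p = 0.54) and 0.60 in vegetative buds (standard error 0.60, adjusted p = 0.419), although the libraries of the stages did not overlap. With the 10 Pre0CU and Post770CU libraries alone, the value in flower buds was 0.48 (adjusted p = 0.000114), under the fold minimum. *CO/COL1/COL2-A* had log2 fold changes of 0.32 in flower buds (adjusted p = 0.317) and 0.08 in vegetative buds (adjusted p = 0.77).

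**Figure D3:**
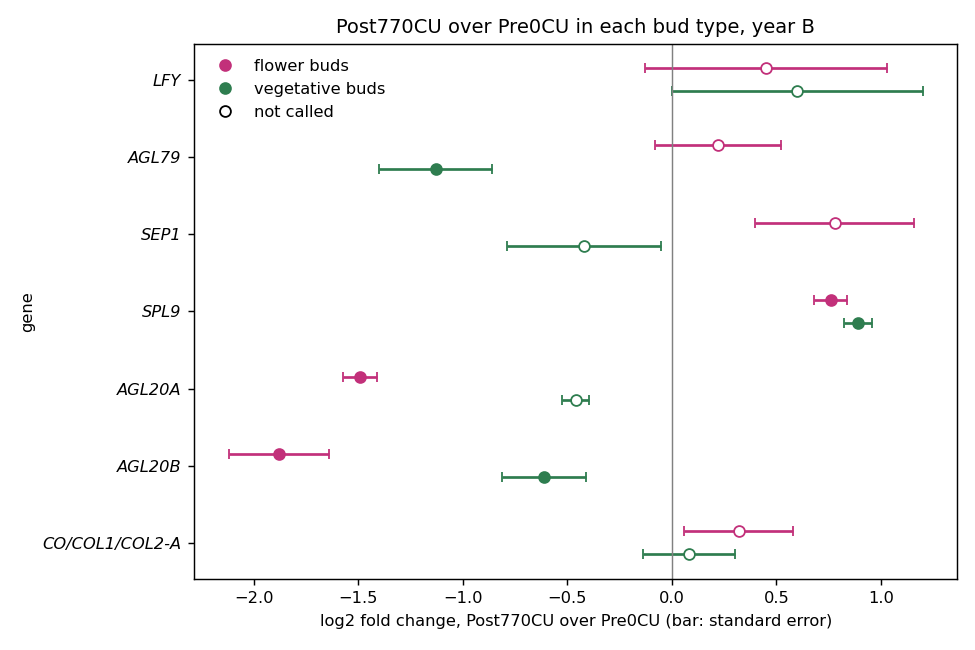
Log2 fold change of Post770CU over Pre0CU (horizontal axis, with standard error) for each gene in flower buds (2 libraries per stage) and vegetative buds (3 libraries per stage) of year B. *SPL9* lies right of 0 in both bud types, *AGL20A* and *AGL20B* are further left in flower buds, and *AGL79* is called, left of 0, in vegetative buds but not in flower buds.

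The third question was how the genes ran through the chilling period within vegetative buds of year B. *CO/COL1/COL2-A* was the 1 gene of 7 called between 200CU and Pre0CU, where 22.5% of all genes were called. Between 475CU and 200CU it was again the 1 gene called, in the other direction, where 8.11% of all genes were called. It had 19.8, 25.1 and 40.0 CPM at 200CU, against 18.5, 18.9 and 18.6 CPM at Pre0CU (log2 fold change 0.60, standard error 0.22, edgeR adjusted p = 0.0329). At 475CU it had 14.1, 12.8 and 22.6 CPM, which was below 200CU at -0.78 on the log2 scale (standard error 0.22, adjusted p = 0.0189), with overlapping libraries. Both calls were lost without the third 200CU library (0.27, adjusted p = 0.267, and -0.44, adjusted p = 0.11), and DESeq2 did not call the first (0.61, adjusted p = 0.051). The rise at 200CU also missed the threshold without any one of the Pre0CU libraries (0.60 to 0.61, adjusted p = 0.0726 to 0.0793). The fall at 475CU missed it without the first or the second 475CU library (-0.67, adjusted p = 0.0867, and -0.62, adjusted p = 0.0959).

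*AGL20A* was highest at 200CU among the year B stages, with 594, 556 and 622 CPM. It had 443, 461 and 547 CPM at 475CU. The steps of 0.35 at 200CU (adjusted p = 0.000321) and -0.29 at 475CU (adjusted p = 0.00512) did not reach the fold minimum. The step from 475CU to Post770CU was called at -0.53 (standard error 0.0656, edgeR adjusted p = 1.27e-05), and without the third 475CU library it was -0.43 and under the minimum fold.

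Replicates of *LFY* stood far apart in the middle of the chilling period. At 475CU of year B the vegetative libraries had 32.0, 30.4 and 4.03 CPM, and at 200CU 3.80, 7.60 and 15.5 CPM. In both groups the highest library lay several times above the lowest, by 7.94-fold at 475CU and 4.10-fold at 200CU. The first and second 475CU libraries came nearer to the flower buds (56.1 to 81.9 CPM) than any other vegetative library of year B did. At 475CU *AGL79*, with 15.5, 13.8 and 6.15 CPM, and *SEP1*, with 2.63, 2.7 and 0.776 CPM, were also higher in the first and second library than in the third. *AGL20A* (443, 461 and 547 CPM), *AGL20B* (1.63, 1.39 and 2.14 CPM) and *CO/COL1/COL2-A* (14.1, 12.8 and 22.6 CPM) were lower in them. *SPL9*, with 86.9, 88.3 and 92.2 CPM, differed little among the 3 libraries.

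The calls for *LFY* in this period rest on those libraries. For 475CU against Pre0CU, where 2 of 7 genes (*LFY* and *SPL9*) and 25.2% of all genes were called, the log2 fold change of *LFY* was 2.74 (standard error 0.57, edgeR adjusted p = 0.000805). With the 475CU group represented by library 1, 2 or 3 alone it was 3.27, 3.20 and 0.29. A group of 1 library has no spread of its own, so such fits are given by effect size only. For Post770CU against 475CU, which also differ in the labelled RNA, 3 of 7 genes (*LFY*, *AGL79* and *AGL20A*, all lower) and 15.6% of all genes were called. In that step *LFY* was -2.14 (standard error 0.54, adjusted p = 0.00504) and *AGL79* -1.06 (standard error 0.27, adjusted p = 0.0056). With limma-voom *LFY* missed the threshold there (-1.64, adjusted p = 0.0789). With the third 475CU library alone *LFY* became 0.32 and *AGL79* -0.12 in that step. The same library alone gave *AGL79* a fall of 1.00 already at 475CU against Pre0CU. At 200CU against Pre0CU *LFY* was not called (1.44, standard error 0.58, adjusted p = 0.0539), but it was without the first 200CU library (1.81, adjusted p = 0.0175) and with DESeq2 (1.45, adjusted p = 0.0469). At 475CU against 200CU it was 1.29 (adjusted p = 0.0922), with calls at 1.79 without the third 475CU library (adjusted p = 0.000704) and at 1.96 without the third 200CU library (adjusted p = 0.0229). Without the third 475CU library *SEP1* was also called lower (-1.01, adjusted p = 0.00893) and *CO/COL1/COL2-A* higher (0.56, adjusted p = 0.0448) at Post770CU than at 475CU, and *AGL20B* lower at 475CU than at Pre0CU (-0.66, adjusted p = 0.0204). At 200CU against Pre0CU, *AGL20B* was called without the first 200CU library (-0.56, adjusted p = 0.0462) and *AGL79* without the third (-0.66, adjusted p = 0.0468).

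To see whether other genes moved with *LFY* in these libraries, the genes more than 4-fold higher in flower buds at both stages, with an adjusted p below 0.05, were gathered, a rule set after the *LFY* values had been seen. It gave 19 genes besides *LFY*. Their summed level was 648 and 807 CPM at Pre0CU and 2960 CPM in each library at Post770CU in flower buds, against 121 to 131 CPM at Pre0CU and 62.6 to 69.0 CPM at Post770CU in vegetative buds. The 200CU and 475CU libraries of year B were not compared by the rule, but they shared in the spread and scaling of its fit. In them the sum was 143, 245 and 531 CPM at 200CU and 486, 454 and 88.0 CPM at 475CU. The order of the libraries was thus that of *LFY* in both groups. Between the libraries with the highest and the lowest *LFY*, 18 of 19 of these genes were higher in the high one at 200CU and 16 of 19 at 475CU. In year A the third 0CU library, with 5.59 CPM of *LFY* against 1.04 and 1.16 CPM in the others, was above the first for 16 of 19, although the sums of the 3 libraries were 174, 119 and 178 CPM. Where the *LFY* libraries stood closer together, the library highest in *LFY* was above the lowest for 15 of 19 at 475CU and 17 of 19 at 770CU of year A, and for 13 of 19 at Pre0CU and 6 of 19 at Post770CU of year B. The share of all genes that were higher in the same library was not computed, so these counts have no baseline. Whether the vegetative libraries high in *LFY* held flower bud tissue was not tested.

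**Figure D4:**
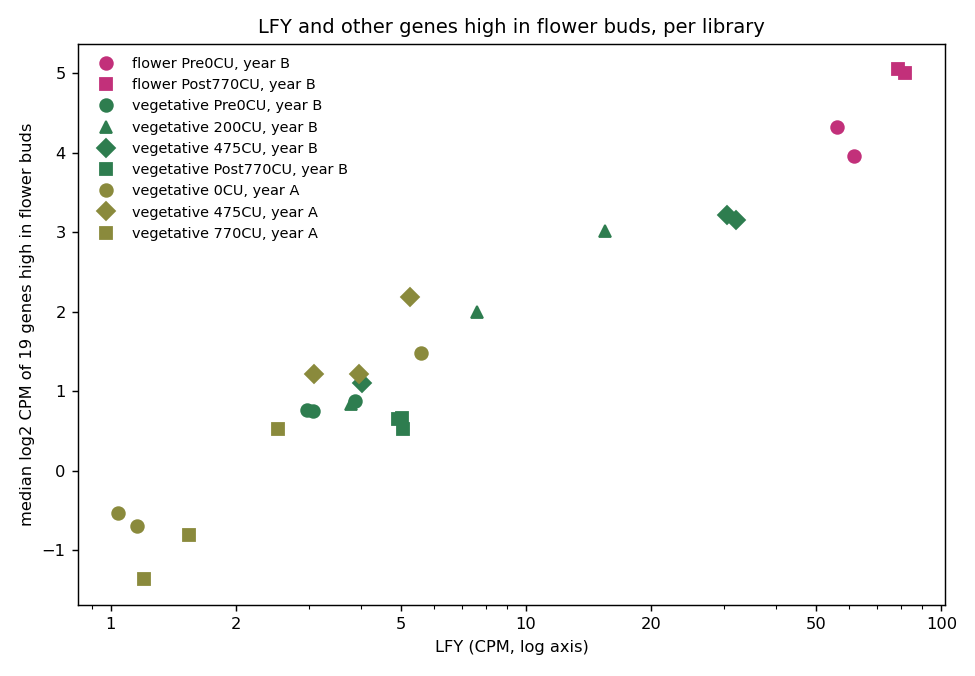
*LFY* level (horizontal, CPM on a log axis) against the median log2 CPM of the 19 other genes more than 4-fold higher in flower buds at both stages (vertical), 1 point per library, years scaled apart. The first and second 475CU and the third 200CU vegetative libraries of year B lie between the other vegetative libraries and the flower buds, with medians of 3.16, 3.22 and 3.01 beside 3.96 to 5.05 in flower buds and 0.52 to 0.88 in vegetative buds at Pre0CU and Post770CU.

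The study names 4 genes specific to flower buds, *FRIGIDA-like B*, *C* and *D* and *CO/COL1/COL2-B*, a choice made on data that include these samples. They summed to 1080 to 1190 CPM in flower buds and 1090 to 1250 CPM in vegetative buds of year B. Most of that sum was *FRIGIDA-like C* (332 to 403 CPM in flower buds and 381 to 450 CPM in vegetative buds) and *FRIGIDA-like D* (723 to 763 CPM in flower buds and 663 to 775 CPM in vegetative buds), whose ranges overlapped between bud types, so the sum cannot show flower bud tissue in a library. The 6 shoot meristem and leaf markers *STM*, *KNAT1*, *WOX*, *CLAVATA3/ESR*, *WOX1* and *AS1* summed to 221 to 256 CPM in flower buds and 107 to 297 CPM in vegetative buds, and none was at 0 in any library of year B. At 475CU this sum was 151, 153 and 158 CPM and at 200CU 107, 117 and 111 CPM. Within the list, *KNAT1*, a KNOX homeobox gene of the shoot meristem, had 41.6, 43.0 and 64.7 CPM at 475CU, lower in the first and second library, and 33.5 and 31.2 CPM in flower buds against 81.0, 72.5 and 71.4 CPM in vegetative buds at Post770CU. *AS1*, which in *Arabidopsis* represses KNOX genes in leaf primordia, had 63.5, 62.3 and 53.7 CPM at 475CU, and 151 and 163 CPM in flower buds against 76.9, 83.1 and 84.8 CPM in vegetative buds at Post770CU. At 200CU *KNAT1* had 29.0, 28.6 and 27.7 CPM and *AS1* 45.6 to 47.9 CPM, without such a split. Neither *KNAT1* nor *AS1* was called between bud types at Pre0CU (edgeR adjusted p = 0.0568 and 0.142). For the other markers of the list, the 475CU ranges were 12.9 to 17.0 CPM (*STM*), 2.97 to 3.42 CPM (*WOX*), 19.8 to 23.1 CPM (*CLAVATA3/ESR*) and 3.95 to 5.03 CPM (*WOX1*). Among these, *STM* (log2 fold change 1.46) and *WOX1* (0.55) were called higher in flower buds at Post770CU. *CLAVATA3/ESR* (-0.53) was called lower there, and *WOX* (-0.3) was not called. The order of the 475CU libraries is not given for these markers, so *KNAT1* and *AS1* do not stand for the list. Floral organ markers such as *APETALA3*, *PISTILLATA* and *AGAMOUS* were not analysed here, since no table used here names them among these identifiers.

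Year A gave a second winter for vegetative buds. *CO/COL1/COL2-A* was the 1 gene of 7 called at 475CU against 0CU, where 24.7% of all genes were called. It had 63.7, 70.2 and 62.7 CPM at 475CU, against 18.0, 12.7 and 9.67 CPM at 0CU, which made a log2 fold change of 2.29 (4.88-fold, standard error 0.21, edgeR adjusted p = 3.08e-05). It was still at 49.7, 65.2 and 46.0 CPM at 770CU, with a difference to 0CU of 2.00 on the log2 scale (standard error 0.20, adjusted p = 2.44e-05). The 475CU libraries of year B, scaled apart, had 14.1, 12.8 and 22.6 CPM, and in that year 475CU was not called against Pre0CU (-0.18, standard error 0.22, adjusted p = 0.551). The difference between the years was not tested.

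*AGL79* was lower at the end of chilling in this winter as well. It had 6.26, 6.62 and 4.52 CPM at 770CU, against 16.0, 24.0 and 11.5 CPM at 475CU and 10.5, 10.6 and 15.1 CPM at 0CU. All 770CU libraries lay below the others. The log2 fold change of 770CU was -1.56 against 475CU (standard error 0.26, edgeR adjusted p = 0.00317) and -1.05 against 0CU (standard error 0.26, adjusted p = 0.00652). *AGL79* was the 1 gene of 7 called between 770CU and 475CU, where 12.2% of all genes were called. Without the third 475CU library it was also called higher at 475CU than at 0CU (0.71, adjusted p = 0.0434).

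*AGL20A* had 437, 468 and 414 CPM at 770CU, against 659, 679 and 569 CPM at 0CU, and fell by 0.53 on the log2 scale (standard error 0.092, edgeR adjusted p = 0.000769). Without the second 0CU library the value of -0.48 was under the fold minimum. Against 475CU the difference at 770CU was called without the third 475CU library (-0.54, adjusted p = 0.00748) or the second 770CU library (-0.52, adjusted p = 0.0145), and with all libraries -0.48 was too small. With *AGL79* lower and *CO/COL1/COL2-A* higher, 3 of 7 genes were called between 770CU and 0CU, where 36.4% of all genes were called. *SPL9* had 80.1, 72.5 and 72.5 CPM at 770CU, against 69.4, 63.8 and 61.4 CPM at 0CU, and was not called (0.21, adjusted p = 0.0669). Its change at 475CU against 0CU was 0.03 (adjusted p = 0.8).

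*LFY*, *SEP1* and *AGL20B* were not called in the 3 comparisons of year A. *LFY* ran from 1.04 to 5.59 CPM, *SEP1* from 0.145 to 1.37 CPM (as few as 6 counts) and *AGL20B* from 0.29 to 1.20 CPM (as few as 12 counts). Without the third 0CU library *LFY* and *SEP1* were called higher at 475CU than at 0CU (1.90, adjusted p = 0.00335, and 2.31, adjusted p = 0.00383). *SEP1* was then also called higher at 770CU than at 0CU (1.46, adjusted p = 0.023).

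The study tabulates 18 further genes with the members, 6 of the flowering pathway and 12 of the shoot meristem. It worked with them on data that include these samples, so calls among them are no independent evidence. At Pre0CU 0 of the 6 flowering genes and 3 of the 12 meristem genes were called between bud types (*KNOX-A* higher, *WOX* and *WOX13* lower in flower buds), beside 6.70% of all genes. At Post770CU 3 of 6 and 6 of 12 were called, again beside 27.8% of all genes. The named flowering genes there were *FRIGIDA-like B*, higher in flower buds, and *BBX14/BBX15* and *CO/COL1/COL2-B*, lower in flower buds. *FRIGIDA-like B*, a relative of the *Arabidopsis* gene that keeps a repressor of flowering active before cold, had 11.5 and 11.1 CPM in flower buds at Post770CU, against 2.99, 2.23 and 2.67 CPM in vegetative buds (log2 fold change 2.10, standard error 0.15, edgeR adjusted p = 1.76e-08). At Pre0CU it had 1.76 and 1.71 CPM in flower buds, against 1.77, 1.82 and 1.97 CPM in vegetative buds. The shoot meristem gene *STM*, a KNOX homeobox gene that keeps meristem cells undifferentiated, had 47.8 and 41.5 CPM in flower buds at Post770CU, against 15.5, 17.2 and 16.0 CPM in vegetative buds (1.46, standard error 0.12, adjusted p = 4.63e-08). Neither gene was called between bud types at Pre0CU, and their winter changes differed between bud types, with interactions of 2.20 (adjusted p = 4.07e-06) for *FRIGIDA-like B* and 1.56 (adjusted p = 3.82e-06) for *STM*.

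In vegetative buds of year B the meristem list moved early. Between 200CU and Pre0CU 11 of its 12 genes were called, 8 of them lower, with a list median of -0.74 on the log2 scale beside 0.0 over all genes. In that step 1 of the 7 floral genes, 2 of the 6 flowering genes and 22.5% of all genes were called, and the difference between the lists was not tested. The study limited its networks of meristem genes to genes that it found changing, on data that include these samples. The share called on the meristem list is thus no independent evidence that meristem genes moved early. On the log2 scale *STM* changed by -2.65 (standard error 0.12, edgeR adjusted p = 7.92e-11) and *KNAT1* by -2.37 (standard error 0.13, adjusted p = 9.42e-10). Year A, at 475CU against 0CU, had 5 of the 12 meristem genes called, 4 of them lower, where 24.7% of all genes were called. There *STM* was called higher (0.54, adjusted p = 0.00535), and *KNAT1*, at 0.46, was under the fold minimum.

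Over the 6 group means of year B, the genes with the profile nearest to each member were taken among the 19818 genes whose log2 CPM averaged 1 or more. The best Pearson r was 0.9986 for *SPL9* and for *AGL20A*, and 0.9675 for *CO/COL1/COL2-A*. For *LFY* the nearest genes were PRUPE_4G244600 (r = 0.9915) and PRUPE_7G019200 (r = 0.9912). With 6 points that share libraries and so many genes searched, these values are a description of the profiles.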

How the data were processed

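RNA was sequenced from 21 vegetative and 4 flower bud libraries. The deposited tables hold raw counts, which the authors made by trimming reads with fastp, mapping them with STAR to the NCBI v2 peach genome and counting exon reads with bedtools 2.30.1, discarding duplicates. Count columns were matched to groups by stage and bud type, the 2 sets of 475CU columns by year. Columns headed 930CU were taken as Post770CU. Counts were fitted with edgeR 4.0.16 (R 4.3.3), 1 fit per year with a term per group, TMM scaling, filterByExpr (minimum count 10, minimum total 15) and the quasi-likelihood test, so 26815 genes were tested in year B and 20950 in year A. Standard errors are the log2 fold change over the square root of its F. The code was tested on simulated data. Alternatives used limma 3.58.1, DESeq2 1.42.0, other thresholds, filters and library sets. The chi-square per gene was 2.88 to 81.5 over 23 replicate pairs, so no library was a copy. All 7 genes were named by rule, and genes and lists were chosen with earlier results of these data known. Protein and promoter sequences were not used here. Figures were drawn with matplotlib 3.10.9.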

Additional observations from a re-analysis of the deposited data

Results flagged for a closer look

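The change from Pre0CU to Post770CU differed between flower and vegetative buds, by the interaction term of the edgeR fit, for 3 of the 7 genes. The difference, flower minus vegetative, was 1.35 on the log2 scale for *AGL79* (adjusted p = 0.0162), -1.03 for *AGL20A* (adjusted p = 1.93e-06) and -1.27 for *AGL20B* (adjusted p = 0.00509). Beside them, 22.9% of all genes tested had such an interaction. The vegetative Pre0CU libraries carry another RNA label than the other 3 groups of the term, and its part in the result was not tested. Groups of 2 or 3 libraries were too small for a test of single outlying libraries.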

How the results depend on the processing

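The direction of every called member value held under every alternative run except 1: with 475CU of year B represented by library 3 alone, *LFY* at Post770CU against 475CU was 0.32. Dropping the minimum fold (FDR below 0.05) gave 3 members called at 200CU against Pre0CU, 2 at 475CU against 200CU and 2 at 770CU against 475CU, with 44.6%, 20.3% and 19% of all genes called. The same setting called 47.8% of all genes at 475CU against Pre0CU, 37.4% at Post770CU against 475CU, 58.4% at Post770CU against Pre0CU in vegetative buds, 14% and 47.1% for flower against vegetative buds at Pre0CU and Post770CU, and 38.5% at 475CU against 0CU of year A. An FDR below 0.01 with a fold above 1.5 called 0 members at 200CU against Pre0CU, 0 at 475CU against 200CU and 1 at 475CU against Pre0CU, and 4.7% of all genes at 475CU against 200CU, 3.55% for flower against vegetative buds at Pre0CU, 15% at 475CU against 0CU and 5.64% at 770CU against 475CU. With limma-voom, 2 members were called at 475CU against 0CU. With library 1, 2 or 3 of 475CU of year B alone, 2, 2 and 0 members were called at 475CU against 200CU, and library 3 alone called 5.31% of all genes. Library 1 alone called 1 member at 475CU against Pre0CU, and library 3 alone called 1 at Post770CU against 475CU. Leaving out 1 library at a time gave 0 to 3 members at 200CU against Pre0CU, 0 to 2 at 475CU against 200CU, 1 to 3 at 475CU against 0CU, and 1 to 2 members with 7.95% to 11.2% of all genes at 770CU against 475CU. Of 1260 member values under alternatives, 1168 kept their direction and their side of the threshold, 29 lost the call and 32 gained it. Another scaling (RLE) moved no member by more than 0.025 on the log2 scale, and halving the counts of year A, tried after seeing the data, changed no call. The planned replicate block by the labels' letters was not run, because the count columns carry numbers that cannot be tied to the letters. A replicate block on the column numbers, chosen after seeing the data, changed no member's call and left the members called as they were in each of the 12 comparisons, for example 4 at Pre0CU (6.5% of all genes) and 4 at Post770CU (27.5%) for flower against vegetative buds. Same-numbered libraries of different groups had a median correlation of deviations of 0.0168 in year B (2 of 36 pairs over 0.1) and 0.00694 in year A (4 of 9). Differently numbered libraries had medians of -0.0109 in year B (6 of 70 pairs over 0.1) and -0.0416 in year A (3 of 18). The highest value in year A was 0.555 for same numbers and 0.215 for different numbers. In years B and A, 7 of 16 and 5 of 9 libraries correlated best with their own number. Whether equal numbers mark a shared source was not tested. Depth limits *SEP1* and *AGL20B*, counted 6 to 758 and 12 to 229 times in a library.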
